A study of Homo sapiens with 6 samples.

Results

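The genes described here encode ligands of the fibroblast growth factor (FGF) family and their receptors. They were taken by symbol and are 6 ligand genes (FGF1, FGF2, FGF5, FGF7, FGF11 and FGF18) and 4 receptor genes (FGFR1 to FGFR4), 10 of the 60612 genes in the table. RNA was sequenced from U87, an established human glioblastoma cell line, in 6 libraries. The 3 NC libraries came from cells that had received a scramble shRNA by lentivirus, and the 3 shPRMT6 libraries from cells that had received an shRNA against PRMT6 in the same way. According to the methods the infected cells were selected with puromycin and the replicates were independent, so that both groups are selected populations of 1 cell line, and the labels give no difference between them but the shRNA. The sources do not say which PRMT6 shRNA was sequenced, nor whether the library numbers mark repeats of 1 shRNA. The comparison, shPRMT6 against NC, asks which RNAs differed when PRMT6, an arginine methyltransferase of histones and other proteins, was lowered.

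FGF ligands are mostly secreted proteins that bind receptor tyrosine kinases at the cell surface, with heparan sulfate chains as a necessary partner. The activated receptor phosphorylates the adaptor FRS2, which passes the signal through GRB2, SOS, RAS, RAF and MEK to ERK, and ERK in turn switches on its own inhibitors, the Sprouty proteins and dual-specificity phosphatases. FGF2 and FGFR1 are well known in glioblastoma cells, where they support growth and stem-like states.

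In shPRMT6 cells FGF1 RNA rose 1.77-fold, while RNA of FGF11 fell to 12.8% and that of FGFR1 to 80.0% of its NC mean. FGF2, the most abundant ligand, stood at 56.1% and FGF5 at 126% of their NC means, and neither passed the test. These are bulk libraries, in which fewer cells with an RNA and less of it per cell cannot be told apart. Of the 10 genes, 5 were abundant enough to be tested, and 3 of those 5 passed an adjusted p of 0.05 (1 higher and 2 lower), beside 18.6% of all 18106 genes tested in either direction, 9.51% higher and 9.06% lower. The sum of FGF11 and its overlapping genes fell less and did not pass. That sum could not show how shared reads affected FGF11. The call of FGFR1 depended on single libraries. Both genes stayed below NC in these settings, as given below for each gene.

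The targeted gene was checked first. PRMT6 RNA was 9.33, 7.97 and 7.19 CPM (counts relative to library size after TMM scaling) in NC replicates 1, 2 and 3. It was 3.57, 4.58 and 5.24 CPM in the shPRMT6 libraries, below every NC library. On the log2 scale it was lower by a fold change of -0.87 (SE 0.187, edgeR adjusted p = 0.0225), and this call was lost without NC replicate 1 (adjusted p = 0.0613), shPRMT6 replicate 1 (0.0588) or shPRMT6 replicate 2 (0.0713). Total counts ranged from 56388161 to 75887696 per library. Of 8 fixed markers of mesenchymal U87 cells, all were detected, with a summed level of 20100 to 21000 CPM in NC and 16100 to 16900 CPM in shPRMT6. CDKN2A and CDKN2B, which U87 is known to lack, had at most 4 counts in any library, and MTAP, lost with them, had 10 to 33. Of 5 fixed markers each, 2 astrocyte, 1 neuron, 3 oligodendrocyte and 3 blood and microglial genes had at most 10 counts in every library, AQP4, MOG, SOX10 and AIF1 being at 0. The others in these lists were detected, among them SLC1A3 (1155 to 2323 counts), TUBB3 (6656 to 14171), MBP (25 to 172) and CD68 (9181 to 20112). The summed levels of these 4 lists were 19.2 to 42.7, 117 to 222, 0.715 to 3.14 and 148 to 256 CPM in NC and overlapped those in shPRMT6 (21.2 to 35.9, 130 to 247, 2.63 to 3.27 and 144 to 316 CPM). The 5 epithelial markers summed to 17 to 23.1 CPM in NC and 5.34 to 10.3 CPM in shPRMT6, with KRT8 (edgeR adjusted p = 0.0295) and CDH1 (0.0428) lower. The 5 endothelial markers summed to 17.9 to 25.9 and 28.5 to 29.8 CPM, with TEK higher (0.0288). Their part in the results was not tested.

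The target sequences of the PRMT6 shRNAs are shown because an shRNA can also lower RNAs that pair only with its seed, bases 2 to 8 of the guide strand. The matching site is in capitals at the end of each target, written 5′ to 3′ as the sense strand.
shPRMT6 #1: gcccagtttgagaTGCCTTAt
shPRMT6 #2: caccggcattctgAGCATCTt
shPRMT6 #3: cacggacgtttcaGGAGAGAt
The study's figure captions name #2 and #3 and not #1, which its supplement lists. The target of #1 lay in 0 of the 3 annotated PRMT6 transcripts, that of #2 in 2 and that of #3 in 3. The site of #1, which 12.9% of 18834 genes hold in the longest annotated 3′ UTR, occurred once each in FGF1, FGF2 and FGFR2. None of the 10 FGF genes held the 7 bases of #2, a site that 14% of those genes hold. The site of #3, held by 17.9% of those genes, occurred once each in FGF2, FGF7 and FGFR3. In FGF2 it lay at chr4:122896394-122896400 of GRCh38 on the plus strand, within agatgcaGGAGAGAggaagcc. These matches of letters are descriptions and show no binding.

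FGF1, acidic FGF, binds all 4 receptors and leaves the cell without a signal peptide (ENSG00000113578, chromosome 5, 142592178 to 142698070 of GRCh38, minus strand). Its level was 9.46, 8.65 and 8.49 CPM in NC replicates 1, 2 and 3 and 14.8, 16.3 and 16.0 CPM in shPRMT6 replicates 1, 2 and 3. All 3 shPRMT6 libraries lay above all NC libraries, and the lowest of them was well above the highest NC library. The means were 8.87 ± 0.519 CPM in NC and 15.7 ± 0.792 CPM in shPRMT6 (SD, n = 3 each). The log2 fold change was 0.82 (SE 0.0991, edgeR adjusted p = 0.00321), with a 95% confidence interval of 0.59 to 1.06. FGF1 kept its call under all 16 alternatives computed, with log2 fold changes from 0.55 to 0.87. No other gene's exons overlap FGF1 in the annotation. RefSeq gives FGF1 4 start sites, and gene counts do not tell which of them was used.

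FGF2, basic FGF, is the ligand commonly added to cultures of glioma stem cells (ENSG00000138685, chromosome 4, 122826708 to 122898236, plus strand). It had 137, 182 and 264 CPM in NC and 77.2, 124 and 126 CPM in shPRMT6. The lowest NC library stood only slightly above the highest shPRMT6 library, so that the groups did not overlap, but within each group the highest library was well above the lowest. The means were 194 ± 64.1 CPM and 109 ± 27.6 CPM (SD, n = 3 each). The log2 fold change of FGF2 was -0.83 (SE 0.281, 95% confidence interval -1.51 to -0.16), and its adjusted p of 0.089 from edgeR did not pass the threshold. Leaving out NC replicate 3, the highest library, or any other library left it at -1.04 to -0.55, with no adjusted p under 0.0585. With DESeq2 FGF2 did not pass (adjusted p = 0.0512). With replicate number as a block in the model it passed (-0.82, edgeR adjusted p = 0.0282), although these numbers did not pair the libraries. NUDT6, a gene that runs antisense to FGF2, overlaps 804 exon bases of it, 11.9% of its exon bases. NUDT6 had 3.37 to 5.41 CPM in NC and 2.05 to 3.10 CPM in shPRMT6, a log2 fold change of -0.89 that also did not pass by edgeR on all libraries (adjusted p = 0.0582) but passed without NC replicate 2 (-1.06, adjusted p = 0.0428) and with DESeq2 (0.00369). The library kit named in the labels does not mark strand, so reads from the shared stretch cannot be told apart. The sum of both genes had a log2 fold change of -0.84 (edgeR adjusted p = 0.0855). NUDT6, at a mean of 4.47 CPM in NC beside 194 CPM for FGF2, was a small part of that sum. The sum therefore could not show how shared reads affected FGF2.

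FGF5, a ligand known for ending the growth phase of hair, had 10.0, 12.2 and 12.2 CPM in NC and 16.0, 14.3 and 13.2 CPM in shPRMT6 (ENSG00000138675, chromosome 4, 80266599 to 80336680, plus strand). Each shPRMT6 library was above each NC library by a narrow margin. The means of FGF5 were 11.5 ± 1.29 and 14.5 ± 1.45 CPM (SD, n = 3 each), and its log2 fold change of 0.34 (SE 0.129, 95% confidence interval 0.03 to 0.65) had an adjusted p of 0.123 from edgeR. With DESeq2 FGF5 passed (0.34, adjusted p = 0.0365).

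**Figure D1:**
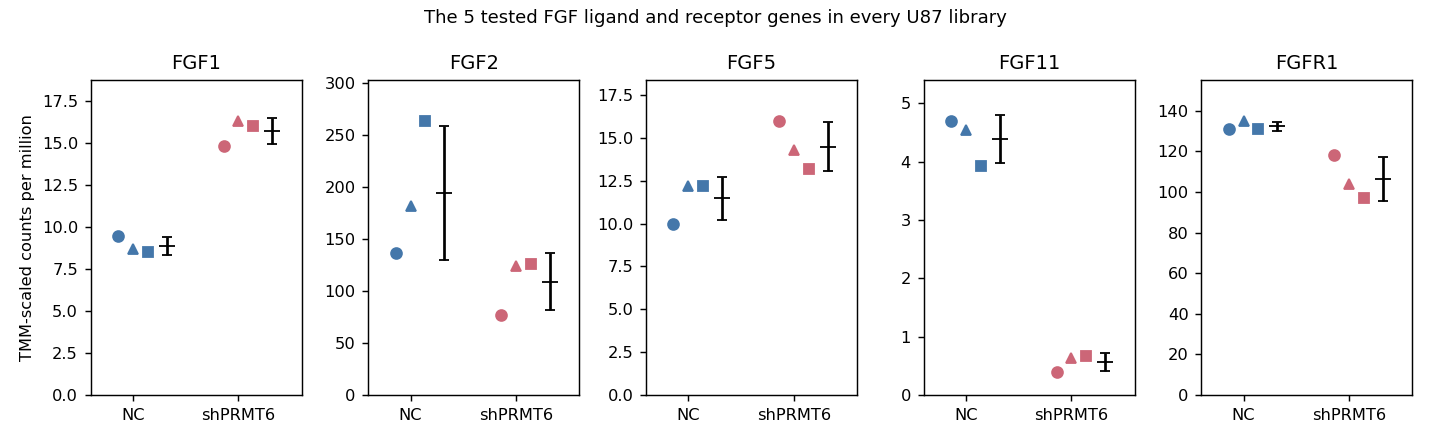
TMM-scaled CPM of the 5 tested genes in each library, on linear axes from 0. Circles, triangles and squares are replicates 1, 2 and 3, and bars give the mean and SD of 3 libraries. In each panel the NC and shPRMT6 points do not overlap, with the widest gap relative to the level for FGF11, and FGF2 shows the widest spread within groups.

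FGF11 is a homologous factor that stays inside the cell and is studied as a partner of voltage-gated sodium channels rather than as a receptor ligand (ENSG00000161958, chromosome 17, 7438273 to 7444937, plus strand). It had 263, 345 and 245 counts in NC and 25, 39 and 45 counts in shPRMT6, or 4.70, 4.54 and 3.93 against 0.393, 0.634 and 0.664 CPM. The means were 4.39 ± 0.41 and 0.564 ± 0.149 CPM (SD, n = 3 each). The log2 fold change was -2.96 (SE 0.255, 95% confidence interval -3.57 to -2.35, edgeR adjusted p = 0.00121). FGF11 was the only 1 of the 5 tested genes past the threshold of the study's methods, an absolute log2 fold change above 1 with an unadjusted p under 0.05, which 5.92% of all genes tested passed.

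Most of FGF11 is shared with other annotated genes, and 79.7% of its exon bases are overlapped. AC113189.4, a noncoding gene on the same strand (chromosome 17, 7439506 to 7445966), covers 4175 of its exon bases, or 75%. It had 9, 124 and 139 counts in NC and 34, 165 and 18 counts in shPRMT6. The values of AC113189.4 overlapped between groups, lowest in NC replicate 1 and highest in shPRMT6 replicate 2, and its log2 fold change was -0.21 (SE 1.07, edgeR adjusted p = 0.914), with the sign turned without NC replicate 3 (0.35), shPRMT6 replicate 1 (0.13) or shPRMT6 replicate 3 (0.26). AC113189.3, on the opposite strand, had 21 to 46 counts in NC and 8 to 21 in shPRMT6, and AC113189.2 had 5 counts in shPRMT6 replicate 3 and 0 elsewhere.

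A read in the shared exons can be given to FGF11, to its neighbour or to neither, and how it was counted is not given in the sources used here. The 4 genes were therefore also summed, an alternative chosen after the data were seen. Such a sum also takes in the neighbours' reads from outside the shared exons and lacks reads given to neither gene. It therefore could not show how shared reads affected FGF11. The sum was 5.24, 6.77 and 6.66 CPM in NC and 1.05, 3.66 and 1.23 CPM in shPRMT6. All shPRMT6 libraries remained below all NC libraries, with replicate 2 far above the other shPRMT6 libraries through its AC113189.4 counts. The log2 fold change of the sum was -1.66 (SE 0.486, 95% confidence interval -2.82 to -0.49) and its adjusted p of 0.0605 did not pass. Without shPRMT6 replicate 2 the sum had a log2 fold change of -2.45 and passed (adjusted p = 0.00785), whereas without any other library it ranged from -1.77 to -1.35 and did not.

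**Figure D2:**
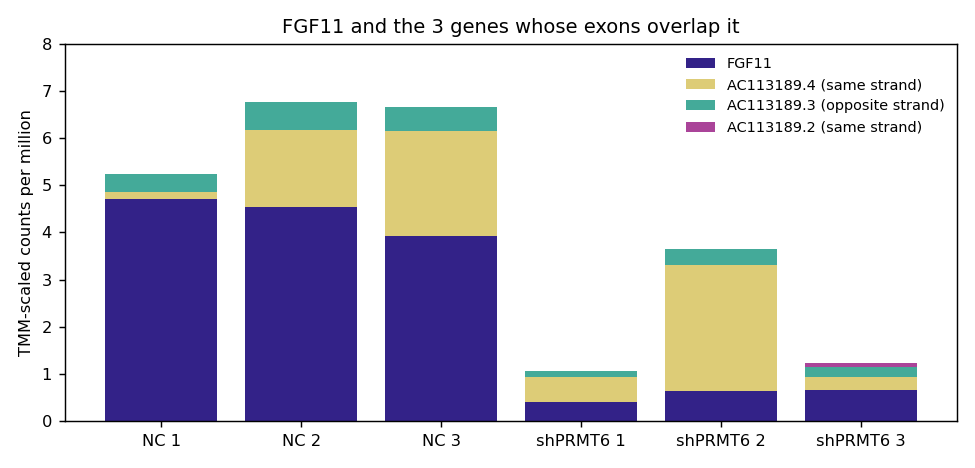
Stacked TMM-scaled CPM of FGF11 and the 3 overlapping genes in each library, from 0. The FGF11 segment is 3.93 to 4.70 CPM in NC and 0.393 to 0.664 CPM in shPRMT6, and the AC113189.4 segment is small in NC 1, shPRMT6 1 and shPRMT6 3 and largest in shPRMT6 2, at 2.68 CPM.

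The promoters of the 3 ligand genes with the largest differences are shown, with a further FGF11 start, since the files count whole genes and these genes differ in how many starts they have. Each sequence runs from 250 bases before to 50 bases after a RefSeq start (GRCh38.p14), on the gene's own strand. Capitals mark GC boxes, the motif GGGCGG on either strand, which 45.0% of 35116 promoters of the same length hold.
FGF1, first start, chr5:142698021-142698320, minus strand: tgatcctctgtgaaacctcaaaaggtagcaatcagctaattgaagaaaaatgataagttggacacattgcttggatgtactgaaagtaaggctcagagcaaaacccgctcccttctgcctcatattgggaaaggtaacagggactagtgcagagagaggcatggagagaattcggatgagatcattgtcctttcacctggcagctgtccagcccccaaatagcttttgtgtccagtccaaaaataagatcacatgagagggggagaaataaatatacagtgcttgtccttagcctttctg
FGF2, chr4:122826581-122826880, plus strand: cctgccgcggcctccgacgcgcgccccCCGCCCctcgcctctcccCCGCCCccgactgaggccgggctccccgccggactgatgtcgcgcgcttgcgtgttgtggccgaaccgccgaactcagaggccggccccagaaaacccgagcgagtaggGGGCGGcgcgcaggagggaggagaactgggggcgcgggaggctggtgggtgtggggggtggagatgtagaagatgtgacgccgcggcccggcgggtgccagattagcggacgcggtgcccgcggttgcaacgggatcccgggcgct
FGF11, first start, chr17:7438048-7438347, plus strand: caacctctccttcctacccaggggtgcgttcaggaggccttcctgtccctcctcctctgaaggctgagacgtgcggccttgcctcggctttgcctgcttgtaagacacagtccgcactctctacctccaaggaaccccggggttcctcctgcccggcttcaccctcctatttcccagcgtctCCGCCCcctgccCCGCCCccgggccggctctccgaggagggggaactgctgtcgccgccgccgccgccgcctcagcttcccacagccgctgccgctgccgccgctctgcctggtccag
FGF11, second start, chr17:7439262-7439561, plus strand: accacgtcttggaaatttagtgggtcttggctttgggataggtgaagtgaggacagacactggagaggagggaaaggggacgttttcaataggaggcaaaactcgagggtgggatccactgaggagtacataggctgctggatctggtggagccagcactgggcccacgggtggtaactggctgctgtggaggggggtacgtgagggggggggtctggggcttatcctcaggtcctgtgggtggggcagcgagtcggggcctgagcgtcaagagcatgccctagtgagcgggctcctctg
The FGF2 window held 3 GC boxes and 41 CG dinucleotides, more CG than most promoters, whose median was 14. The first FGF1 window held 0 GC boxes and 2 CG dinucleotides, and the others of its 4 windows held up to 8. For FGF11 the first window held 2 GC boxes and 23 CG dinucleotides and the second 0 and 9. The second FGF11 start, at 7439512, lies 6 bases from the annotated start of AC113189.4.

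FGF7, the keratinocyte growth factor that mesenchymal cells make for epithelia, had 4, 30 and 11 counts in NC and 10, 0 and 10 counts in shPRMT6. FGF18, a ligand of skeletal and lung development, had 0 counts in every NC library and 0, 4 and 8 counts in shPRMT6. Both were left out by the filter on low counts and were not tested, and the values of FGF7 overlapped between groups. Of the 75-base stretches of FGF7, 5.75% also occur in other annotated genes. A count of 0 allows up to 3 counts, which is 0.0395 to 0.0536 CPM depending on the library, so a low level could not be detected at this depth. These limits cover counting error only and take each count as 1 independent read. Of the values from 1 to 15 counts, 39.8% to 41.5% per library were multiples of 4. If a count did not stand for 1 read, the limits would be too low, which was not tested.

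FGFR1 was the one receptor gene expressed at a level that could be tested (ENSG00000077782, chromosome 8, 38400215 to 38468834, minus strand). It had 131, 135 and 131 CPM in NC and 118, 104 and 96.8 CPM in shPRMT6. The NC libraries lay close together, and the shPRMT6 libraries were spread below them without overlap. The means of FGFR1 were 133 ± 2.29 and 106 ± 10.5 CPM (SD, n = 3 each), and the log2 fold change was -0.32 (SE 0.0815, 95% confidence interval -0.52 to -0.13, edgeR adjusted p = 0.0388). The call was lost without NC replicate 1 (adjusted p = 0.0785), NC replicate 2 (0.0829), NC replicate 3 (0.0993), shPRMT6 replicate 2 (0.131) or shPRMT6 replicate 3 (0.11), and was kept without shPRMT6 replicate 1 (0.0296). Over these 6 fits the log2 fold change ranged from -0.40 to -0.26. LETM2 and AC087623.1, on the opposite strand, overlap 0.997% and 1.13% of the exon bases of FGFR1.

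The other receptor genes were at or near 0. FGFR2 had 0 counts in every library, FGFR3 had 4 counts in NC replicate 1 only, and FGFR4 had 6 counts in NC replicate 1 and 11 in shPRMT6 replicate 3. No fold change is given for them. Per length, as the deposited FPKM, FGFR1 made up 99.6% to 100% of the 4 receptors' sum in NC and 99.5% to 100% in shPRMT6. The means differed by -0.028 percentage points (exact permutation test, two-sided, p = 1, in which 3 libraries against 3 cannot go below 0.1), and the sign turned without NC replicate 2 or 3 (0.0366 each) or shPRMT6 replicate 3 (0.129). Gene counts do not separate the splice forms of the receptors.

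The 5 tested genes did not overlap between groups in CPM, a pattern that 40.2% of all genes tested showed. Their median log2 fold change was -0.32, beside -0.01 for all genes tested. Among the 3 secreted ligands tested, FGF1 and FGF5 were above and FGF2 below NC in every shPRMT6 library.

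Ranked by FPKM, FGF2 came first in NC (mean 24.2, range 16.9 to 33.1), followed by FGFR1 (7.61, 7.46 to 7.77), FGF5 (1.61, 1.39 to 1.73), FGF1 (1.50, 1.45 to 1.58) and FGF11 (0.722, 0.653 to 0.765). The ranges of FGF5 and FGF1 overlapped in NC, and the other neighbours among these 5 did not. In shPRMT6 the order was FGF2 (mean 13.6 FPKM, 9.63 to 15.7), FGFR1 (6.12, 5.60 to 6.78), FGF1 (2.67, 2.51 to 2.77), FGF5 (2.04, 1.86 to 2.26) and FGF11 (0.0921, 0.0644 to 0.11), with no overlap of neighbours. FGF1 thus stood above FGF5 in every shPRMT6 library and within its range in NC. Below FGF11 no library of any gene reached 0.05 FPKM, and the neighbours there overlapped.

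The place of FGFR1 beside FGF2 depended on the gene length used. The length implied by the deposited FPKM was 1.09 to 1.28 times the bases of all annotated exons of a gene, and the 43 annotated FGFR1 transcripts together span 13842 exon bases, against 5375 in the transcript with the longest coding sequence. For FGF2 both are 6775 bases. The ratio of FGFR1 to FGF2 was 0.339 ± 0.106 in NC by FPKM and 0.924 ± 0.288 by CPM per kilobase of that transcript (SD, n = 3), and in shPRMT6 it was 0.482 ± 0.193 and 1.32 ± 0.526.

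**Figure D3:**
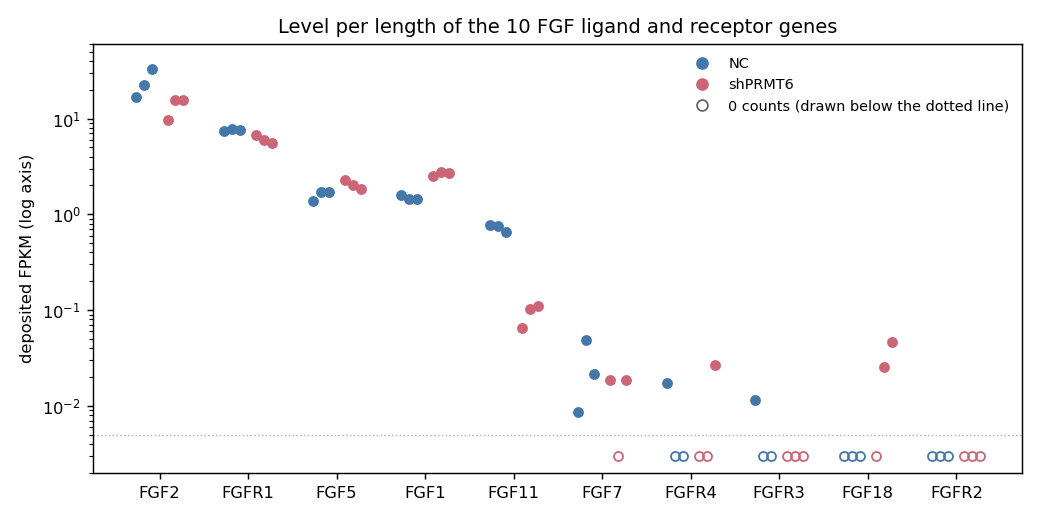
Deposited FPKM of the 10 genes in each library on a log axis, in the order of the NC means. Blue points are NC and red points shPRMT6, and open points below the dotted line are libraries with 0 counts. FGF2 and FGFR1 lead in both groups, FGF1 lies above FGF5 in shPRMT6, and the 5 untested genes lie below 0.05 FPKM.

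The rest of the pathway was described by 7 lists of 120 genes, none of which is a member of the 10. Of these, 94 were tested, and 11 were higher and 14 lower at an adjusted p of 0.05 (26.6%, beside 18.6% of all genes tested), with a median log2 fold change of -0.10. Among 16 other genes of the FGF family, 9 had 0 counts in every library and 4 were tested, among them the intracellular FGF13. Of those tested 0 passed by edgeR (1 at an unadjusted p under 0.05, and 1 by DESeq2). Among 13 co-receptors, binding proteins and the decoy receptor, 7 were tested and 1 passed. This was FLRT3, a membrane protein that binds FGF receptors and promotes their signalling, which had 1.31 to 2.24 CPM in NC and 5.65 to 6.34 CPM in shPRMT6 (log2 fold change 1.80, SE 0.224, edgeR adjusted p = 0.00363). FGFRL1, the decoy receptor without a kinase domain, had 58.7 to 61.2 CPM in NC and 29.6, 61.6 and 61.9 CPM in shPRMT6, so that only shPRMT6 replicate 1 stood apart, and its log2 fold change of -0.24 (adjusted p = 0.59) became 0.03 without that library.

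Heparan sulfate holds FGF on its receptor. Of 13 core protein genes, 11 were tested, of which 1 was higher, 3 lower and 7 did not pass, with a median log2 fold change of -0.25. The syndecan SDC4 fell from 358 to 392 CPM in NC to 114 to 121 CPM in shPRMT6 (log2 fold change -1.67, edgeR adjusted p = 0.000175). HSPG2, which encodes perlecan of the basement membrane, and SDC1 fell by 1.30 and 0.89 on the log2 scale. SDC2 rose by 0.32 (adjusted p = 0.0438), a call that was kept without NC replicate 2 and lost without NC replicate 1 (0.093), NC replicate 3 (0.107), shPRMT6 replicate 1 (0.135), shPRMT6 replicate 2 (0.145) or shPRMT6 replicate 3 (0.0554). Of 21 genes for synthesis and editing of the chains, 16 were tested, and 1 was higher and 1 lower (median -0.08). EXTL3, which starts the chain, fell by 0.55 on the log2 scale from 62.5 to 71.3 CPM in NC. HS6ST3, a 6-O-sulfotransferase at 0.304 to 0.526 CPM in NC, rose by 1.96 (adjusted p = 0.0172), and this was lost without NC replicate 3 (0.0575), shPRMT6 replicate 1 (0.0568) or shPRMT6 replicate 3 (0.0516).

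Of 26 genes that carry the signal from the receptor, all 26 were tested, 3 were higher and 7 lower, and the median log2 fold change was -0.20. FRS2, the docking protein next to the receptor, had 8.62 to 9.53 CPM in NC and 8.47 to 9.32 CPM in shPRMT6 (log2 fold change -0.05, edgeR adjusted p = 0.79). Both MEK genes fell, MAP2K1 by 0.31 and MAP2K2 by 0.47 on the log2 scale (adjusted p = 0.00873 and 0.00845). SOS2, a RAS exchange factor, fell by 0.86, and RPS6KA1, a kinase activated by ERK, fell by 0.95 on the log2 scale. The 3 higher genes were BRAF (log2 fold change 0.62, edgeR adjusted p = 0.0121), PIK3CA (0.51, 0.00886) and CRK (0.29, 0.0142).

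Of 23 feedback inhibitors and target genes of the ERK pathway, 5 were higher, 2 lower and 16 did not pass (median log2 fold change 0.02). The ERK phosphatases DUSP6 and DUSP5 rose, while DUSP4 (log2 fold change 0.02, edgeR adjusted p = 0.892) and DUSP7 (-0.26, 0.0887) did not pass. DUSP6 had 172 to 182 CPM in NC and 251 to 342 CPM in shPRMT6 (log2 fold change 0.68, SE 0.123, edgeR adjusted p = 0.0121), a call lost without NC replicate 3 (0.0513). DUSP5 rose by 0.52 and the early response gene IER3 by 0.47. SPRED2 (log2 fold change 0.30, edgeR adjusted p = 0.0234) and EGR1 (0.27, 0.0377) were also higher. In the other direction, CCND1, which encodes cyclin D1, fell from 1070 to 1180 CPM in NC to 518 to 559 CPM in shPRMT6 (log2 fold change -1.07, adjusted p = 0.000357), and FOSL1, an AP-1 factor, fell by 0.46 on the log2 scale. SPRY2 (0.12), SPRY4 (-0.17), ETV4 (-0.37) and ETV5 (-0.09), classical readouts of FGF signalling, did not pass by edgeR, with adjusted p from 0.0747 to 0.343. With DESeq2, SPRY2 (adjusted p = 0.0362) and ETV4 (0.0101) passed.

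Of 8 genes that regulate receptor splicing, 7 were tested and 1 passed, HNRNPA1, an abundant RNA-binding protein. Its log2 fold change was -0.22 (edgeR adjusted p = 0.0349), and the call was kept without NC replicate 2 and lost without any other library (0.0538 to 0.131).

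**Figure D4:**
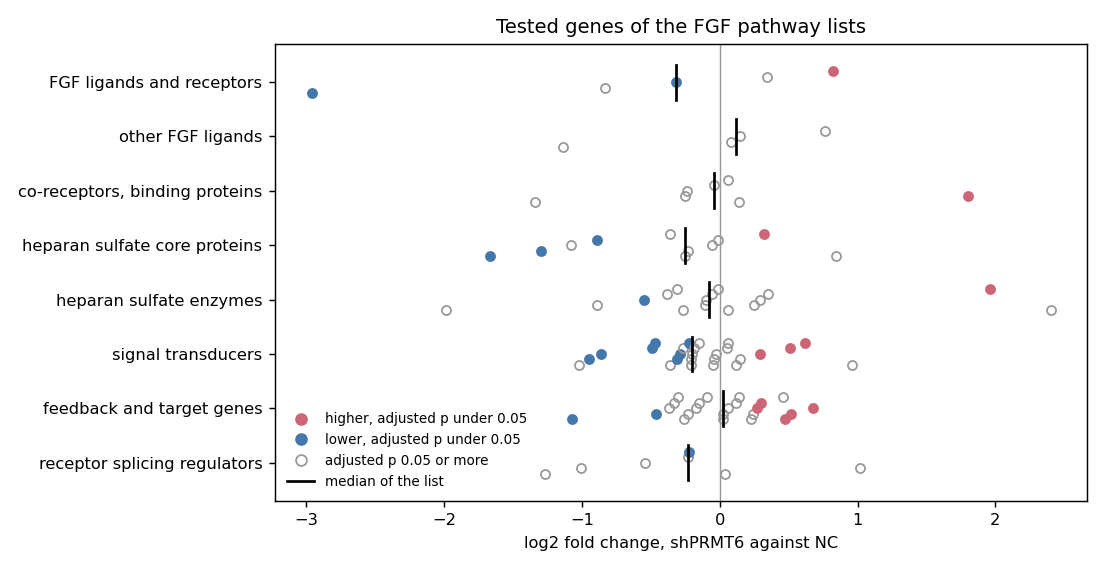
Log2 fold change of each tested gene, shPRMT6 against NC, by list, with genes spread vertically for legibility. Filled points passed an adjusted p of 0.05 in edgeR (red higher, blue lower), and open points did not. Black bars are list medians, from -0.32 for the 5 FGF ligand and receptor genes to 0.12 for the other FGF genes, labelled as ligands.

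**Figure D5:**
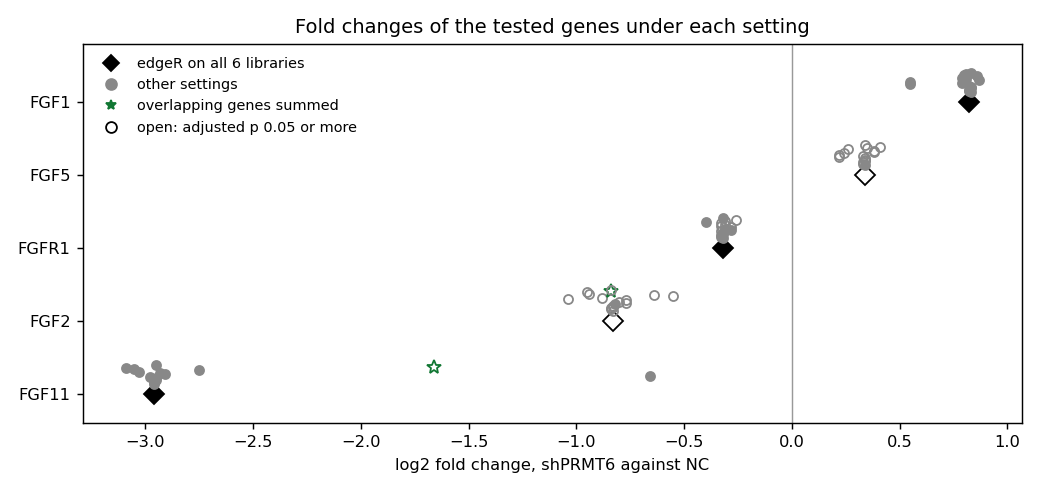
Log2 fold change of the 5 tested genes under each setting. Diamonds are the edgeR fit on all 6 libraries, grey points the other settings, green stars the sums with overlapping genes, and open symbols have an adjusted p of 0.05 or more. No point changes sign, FGF1 is filled throughout, and the FGF11 sum lies at -1.66.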

How the data were processed

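RNA of 3 NC and 3 shPRMT6 libraries was grouped by the labels. The authors deposited raw read counts per gene, without normalization, and FPKM values (0.0001 for genes with no counts). The submitters' processing notes name HISAT2, HTSeq 0.13.5 and GRCh38, and the annotation release, counting mode and use of strand are not given in the sources used here. The methods define changed genes by log2 fold change above 1 and p under 0.05, read here as absolute and unadjusted.

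The main test was the quasi-likelihood F test of edgeR 4.0.16 after TMM scaling, on the 18106 genes kept by filterByExpr, with Benjamini-Hochberg adjustment over all of them and no replicate block. The p-values set the difference between the groups against the spread between these libraries. No library repeated another (chi-square over genes, per degree of freedom, 52.2 or more for each pair of replicates). Of the values between 1 and 15 counts, 39.8% to 41.5% per library were multiples of 4, and the cause was not tested. Of 60612 identifiers, 58394 were in GENCODE 29, which gave exons and transcripts. Promoters are from RefSeq, with 35116 windows, and the shRNA sequences from the supplement. A seed site is 7 bases and 3′ UTRs had at least 50.

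The genes and lists were chosen with earlier results of these data known. Named were PRMT6, the 10 genes, genes overlapping them, up to 4 genes a list with the smallest p among those past an adjusted p of 0.05 without overlap of the groups, and FRS2, FGFRL1, SPRY2, SPRY4, DUSP6, ETV4 and ETV5. BRAF, PIK3CA, CRK, DUSP4, DUSP7, SPRED2 and EGR1 were added after the data were seen. Alternatives were DESeq2 1.42.0, edgeR with upper quartile or no scaling factors, other count filters (10 or more in each library, or 1 or more in some library), a replicate block, limma 3.58.1 on FPKM (pseudocounts of 1 and 0.1 where the mean was 1 or more, and a pseudocount of 1 for every gene), a stricter threshold of 0.01, and 1 library left out at a time. The programs were tested on simulated data.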

Additional observations from a re-analysis of the deposited data

How the results depend on the processing

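FGF1 kept its direction and its side of the threshold under all 16 alternatives computed, and no tested FGF gene changed sign under any. FGF11 was not tested by limma where low FPKM were filtered out, and its log2 fold change was -0.66 on log2(FPKM + 1) over all genes, a scale that understates changes of low genes. It did not pass when summed with overlapping genes (-1.66), and that sum ranged from -2.45 to -1.35 without single libraries. Without single libraries FGF1 ranged from 0.79 to 0.87, FGF2 from -1.04 to -0.55, FGF5 from 0.24 to 0.41, FGF11 from -3.09 to -2.75, FGFR1 from -0.40 to -0.26 and PRMT6 from -1 to -0.73, and 2 to 3 of the 5 tested FGF genes passed. FGF5 passed with DESeq2 (0.34). FGFR1 did not pass with at least 1 count in any library (-0.32) or by limma without a filter (-0.28), nor did PRMT6 by the latter (-0.47). SDC2 and HNRNPA1 also lost their calls in both (adjusted p = 0.0613 and 0.0687, and 0.262 and 0.172 by limma), and HSPG2 (0.0737), EXTL3 (0.0591), HS6ST3 (0.298), SOS2 (0.0975), RPS6KA1 (0.0842), MAP2K2 (0.0817), DUSP5 (0.0673) and DUSP6 (0.167) by limma without a filter. With the threshold of the methods 1 FGF gene passed. FGFRL1 changed sign to 0.03 without shPRMT6 replicate 1, and AC113189.4 ranged from -1.74 (without shPRMT6 replicate 2) to 0.35 without single libraries.

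The number of genes past the threshold, 3362, was 5782 with DESeq2, 1073 by limma without a filter, 1072 with the threshold of the methods, 1320 at an adjusted p of 0.01 and 1755 to 3183 without single libraries (1939 without NC replicate 3, 1871, 1755 and 1858 without shPRMT6 replicates 1, 2 and 3). Of the other pathway genes 25 passed, and 47, 10, 10 and 14 in the same order, and 16 to 32 without single libraries (16 without NC replicate 3). The difference in the FGFR1 share ranged from -0.157 to 0.129 percentage points, and the ratio of FGFR1 to FGF2 per length moved to 0.924 in NC and 1.32 in shPRMT6 with the shorter transcript, whose length is the cause by construction. For the other changes the cause was not tested.

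The replicate numbers did not pair the libraries, since the deviations of same-numbered libraries correlated at -0.0248, -0.0171 and -0.0301. With a replicate block FGF2 passed (-0.82, adjusted p = 0.0282 from edgeR), FGFR1 (-0.33, 0.0781), PRMT6 (-0.88, 0.0803), HS6ST3 (0.0517), SDC2 (0.0901) and HNRNPA1 (0.104) did not, and 1858 genes and 16 other pathway genes passed. No shPRMT6 library correlated best with the NC library of its own number.

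Dividing counts by 4, an alternative chosen after the data were seen like the sums and the shorter transcript, changed no call of the 5 FGF genes. Depth limits FGF7, FGF18 and FGFR2 to FGFR4, which had at most 30 counts in a library.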

Other observations

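The genes here were chosen after their values were seen. GRB2, the adaptor between FRS2 and SOS, had 47.1, 161 and 45.9 CPM in NC and 154, 173 and 166 CPM in shPRMT6. NC replicate 2 thus lay among the shPRMT6 libraries and more than 100 CPM above the other NC libraries, and the log2 fold change of 0.96 did not pass (edgeR adjusted p = 0.228).

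FGF13, an intracellular factor of the same subfamily as FGF11, had 9.53, 5.44 and 10.6 CPM in NC and 13.6, 14.6 and 15 CPM in shPRMT6. The groups did not overlap, with the shPRMT6 libraries higher, but the log2 fold change of 0.76 did not pass (edgeR adjusted p = 0.0774). ESRP1, the epithelial regulator of FGF receptor splicing, was low in all libraries, at 0.342 to 0.447 CPM in NC and 0.66 to 0.845 CPM in shPRMT6 (log2 fold change 1.02, edgeR adjusted p = 0.0686). FRS3, a docking protein related to FRS2, had 3.51, 2.47 and 1.71 CPM in NC and 1.57, 1.23 and 0.989 CPM in shPRMT6 (log2 fold change -1.02, adjusted p = 0.0764).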
